A study of Homo sapiens with 8 samples.

Results

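The EGR, NR4A and KLF early-response factors are 10 genes for transcription factors that cells can switch on within minutes of a stimulus: EGR1, EGR2, EGR3, NR4A1, NR4A2, NR4A3, KLF2, KLF4, KLF6 and KLF10. They were taken by name as members of these families, with earlier results of these data known, and all 10 were among the 21059 genes of the table. The RNA of MDA-MB-157 cells, a human breast cancer cell line labelled as lacking estrogen receptor, was sequenced. The low glucose group had 5 mM glucose for 48 hours and the high glucose group had 25 mM glucose for the same time, with 4 libraries each. Both groups were kept without serum after a period in low glucose medium, per the study's methods. The question is which transcripts respond to a glucose concentration as in diabetes. All libraries came from a single cell line, and no osmotic control is among the 8. RNA was taken only at 48 hours, so a brief early rise and fall of a factor was not measured.

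These factors work in layers. Growth factor signals pass through RAS and the ERK kinases to serum response factor, which sits on CArG boxes upstream of EGR genes. Cyclic AMP signals pass through protein kinase A to CREB, which sits on cyclic AMP response elements (CRE) upstream of NR4A genes. The ERK5 kinase and MEF2 factors drive KLF2 and KLF4 in endothelial and other cells. EGR proteins are zinc finger factors of GC-rich sites, NR4A proteins are orphan nuclear receptors that act without a known natural ligand, and KLF proteins are zinc finger factors of GC boxes and CACCC elements.

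The bases upstream of a start site were searched for the letters of these elements. RefSeq entries on GRCh38.p14 were found for 7 of the 10 factors, with 10 start sites in all. NR4A2, EGR3 and KLF10 were not among them. The 250 bases before the start are given below for a start site of EGR1 and EGR2, which have CArG boxes. Those of NR4A3 and KLF4, which have CRE cores and changed between the groups, follow. Each is written 5′ to 3′ on the strand of the gene, and capitals mark a CArG box or a CRE core (TGACG, or CGTCA where it lies on the other strand).
EGR1, chr5:138465229-138465478, plus strand: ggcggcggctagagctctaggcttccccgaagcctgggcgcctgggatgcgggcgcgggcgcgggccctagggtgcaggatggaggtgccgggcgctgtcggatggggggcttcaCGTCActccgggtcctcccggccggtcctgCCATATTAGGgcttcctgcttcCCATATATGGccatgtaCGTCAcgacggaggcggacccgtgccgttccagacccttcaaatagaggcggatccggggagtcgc
EGR2, start site 3, chr10:62816367-62816616, minus strand: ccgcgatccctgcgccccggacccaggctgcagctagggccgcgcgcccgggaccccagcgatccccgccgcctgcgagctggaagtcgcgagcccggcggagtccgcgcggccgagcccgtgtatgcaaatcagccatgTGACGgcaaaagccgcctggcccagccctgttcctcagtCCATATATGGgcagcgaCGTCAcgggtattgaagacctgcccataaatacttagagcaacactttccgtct
NR4A3, chr9:99821635-99821884, plus strand: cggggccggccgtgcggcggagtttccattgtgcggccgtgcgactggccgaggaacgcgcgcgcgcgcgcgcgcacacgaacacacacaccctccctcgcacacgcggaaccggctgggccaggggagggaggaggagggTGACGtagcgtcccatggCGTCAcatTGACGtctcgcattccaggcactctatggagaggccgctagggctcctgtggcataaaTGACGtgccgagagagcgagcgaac
KLF4, chr9:107489770-107490019, minus strand: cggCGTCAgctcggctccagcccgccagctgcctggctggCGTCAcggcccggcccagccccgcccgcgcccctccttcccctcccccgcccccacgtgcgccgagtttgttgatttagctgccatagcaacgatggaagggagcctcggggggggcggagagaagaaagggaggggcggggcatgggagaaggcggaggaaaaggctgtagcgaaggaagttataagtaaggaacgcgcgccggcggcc

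EGR1 had 2 CArG boxes, at -105 to -96 and at -83 to -74 from the start, and start site 3 of EGR2 had 1 at -71 to -62. A CArG box was in 1.159% of the 35116 windows of this length. NR4A3 had 4 CRE cores, between -109 and -21, while EGR1, EGR2 and KLF4 had 2 each, and 21.22% of windows held at least 1. The share of windows with more than 1 was not computed. EGR1 and EGR2, with CRE cores, did not pass the test given below, and KLF2 and KLF6, which were higher, had no CRE core. The EGR site GCGGGGGCG, in 4.724% of windows, was found upstream of KLF2 at -248 to -240 and of KLF6 at -65 to -57. The full CRE (TGACGTCA, in 1.646% of windows) and the NBRE of NR4A proteins (AAAGGTCA, in 1.045%) were in none of the 10 windows. All motifs were searched on both strands. Both start sites of NR4A1 and start sites 1 and 2 of EGR2 were without a match. A match is a run of letters and not a measured site.

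**Figure D1:**
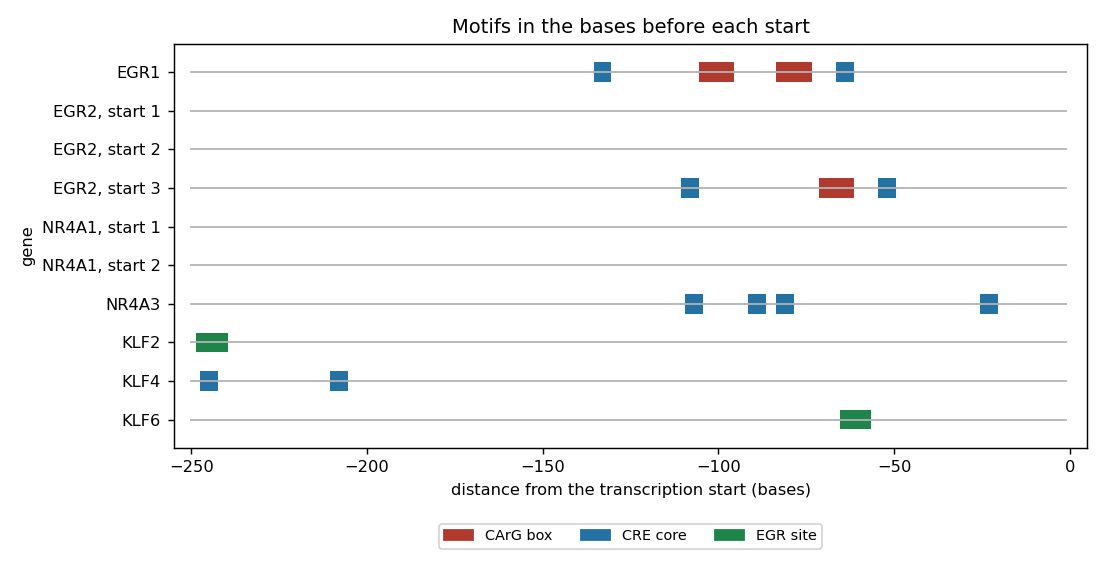
Position of CArG boxes, CRE cores and EGR sites in the 250 bases before each RefSeq start site, with distance from the start in bases on the horizontal axis and 1 line per start site. EGR1 and start 3 of EGR2 carry the CArG boxes and NR4A3 has 4 CRE cores. Both NR4A1 lines and the lines of EGR2 starts 1 and 2 are empty.

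Of the 10 factors, 6 were higher at high glucose and 0 were lower by limma at an adjusted p under 0.05, and 0 were lower at an unadjusted p under 0.05. The KLF genes were higher in 4 of 4 cases, the NR4A genes in 2 of 3 and the EGR genes in 0 of 3. Over all genes, 46.8% were called in either direction, 22.0% higher and 24.8% lower. In the same 6 factors each high glucose library was above each low glucose library, which held for 20.9% of all genes, and groups did not overlap in either direction for 44.5%. The median log2 change was 0.45 over the 10 factors and -0.0092 over all genes. Values are counts per 1000000 reads (CPM) and changes are differences of log2(CPM + 1), high minus low, which understate the change of genes near 1 CPM. A fit restricted to the 14372 genes with a mean of at least 1 CPM called 9631 of them in either direction. That fit left out EGR3 and called 6 factors higher. Being called in either direction was thus common among expressed genes.

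**Figure D2:**
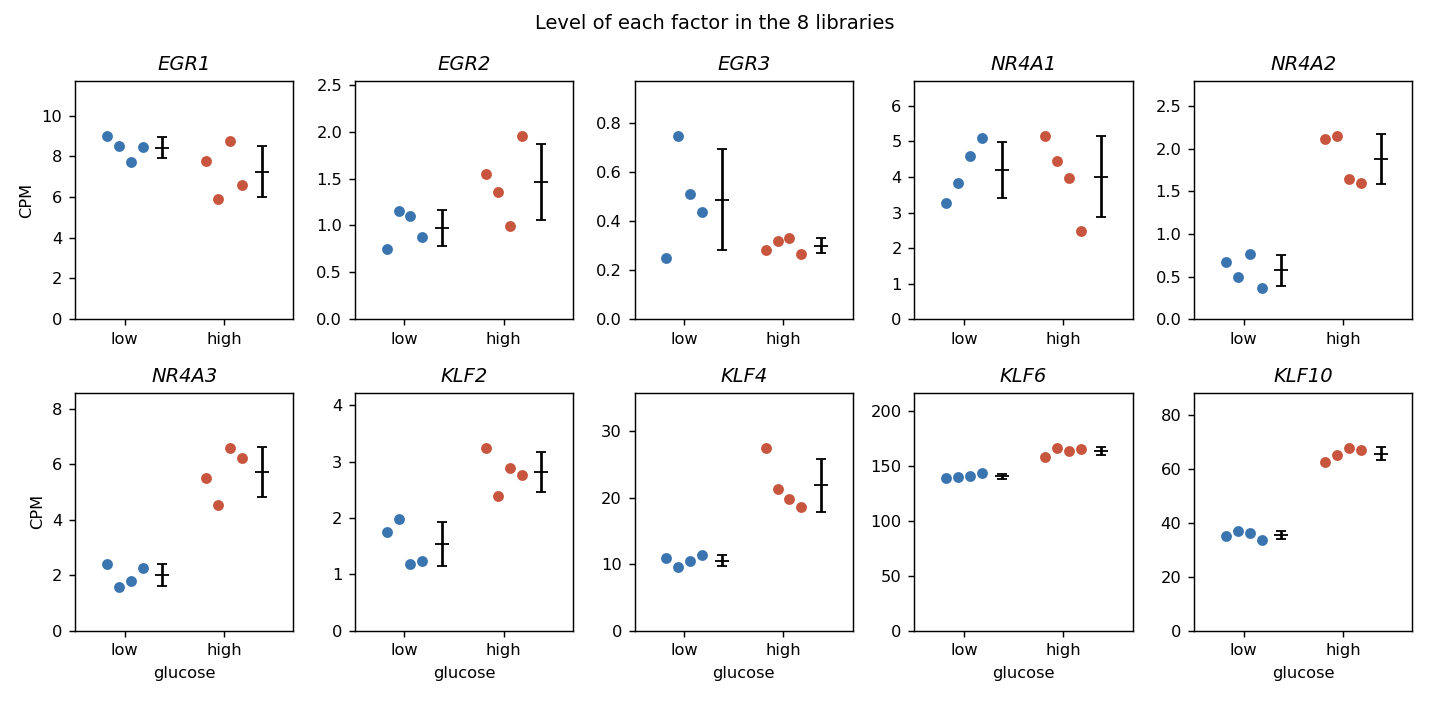
Level in CPM of each of the 10 factors at low and high glucose, with 1 point per library (replicates 1 to 4 from left to right) and the mean with its SD beside the points. The points of NR4A2, NR4A3, KLF2, KLF4, KLF6 and KLF10 do not overlap between groups, and those of EGR1, EGR2, EGR3 and NR4A1 do.

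The libraries held an estimated 9721648 to 12482546 reads, so 3 reads were worth 0.212 to 0.267 CPM, and depth limits the lowest members. High glucose replicate 1 stood apart along transcript length. The deviation of each library from the mean of the others in its group was correlated with length over 11255 genes. The Spearman correlation was -0.649 for this library, 0.248 to 0.465 in the other high glucose libraries and -0.133 to 0.0563 at low glucose. The reference of the other high glucose libraries includes replicate 1, so their values are not independent of it. Leaving out high glucose replicate 1 changed no call among the 10 factors. The labels do not say whether replicates were separate cultures, so p-values measure the spread between these libraries, which may be technical. Transcripts of the whole culture were measured, so fewer cells with a transcript and less of it per cell cannot be told apart.

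EGR1, the best known of the family and an early readout of ERK activity, did not pass the test. Its gene (ENSG00000120738.8) spans 137801168 to 137804992 of chromosome 5 on GRCh37, plus strand. Its levels at low glucose were 9.002, 8.53, 7.73 and 8.45 CPM in replicates 1 to 4. At high glucose they were 7.765, 5.90, 8.74 and 6.58 CPM. The groups overlapped, with high glucose replicate 3 above 3 of the 4 low glucose libraries. The means were 8.43 ± 0.525 and 7.25 ± 1.26 CPM (SD, n = 4 each), with a log2 change of -0.20 (SE 0.12, limma adjusted p = 0.196). The change was -0.12 without high glucose replicate 2 and -0.064 with quantile normalization, and it was not called in either. These values rest on 74 to 116 reads per library.

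EGR2, a factor of nerve myelination and of lymphocyte tolerance, was at 0.750, 1.16, 1.10 and 0.874 CPM at low glucose. In the high glucose libraries it was at 1.55, 1.35, 0.990 and 1.96 CPM. High glucose replicate 3 lay inside the low range and the other 3 were above it. The log2 change was 0.31 (SE 0.13, limma adjusted p = 0.0934), from 9 to 22 reads per library. Without high glucose replicate 3 it was 0.41 (adjusted p = 0.0275), and quantile normalization gave 0.41 (adjusted p = 0.0411), so the call depends on a single library or on the scaling. Of its transcript, 145 bases lie on the same strand as another annotated gene. The gene (ENSG00000122877.16) lies on the minus strand of chromosome 10, from 64571756 to 64578927 on GRCh37.

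EGR3, which acts with EGR2 in lymphocytes, was close to the floor of detection. On GRCh37 it is annotated at 22545172 to 22550993 of chromosome 8, minus strand (ENSG00000179388.9). The low glucose libraries had 0.250, 0.745, 0.510 and 0.437 CPM. The high glucose libraries had 0.282, 0.319, 0.330 and 0.267 CPM, all above replicate 1 and below replicates 2 to 4 of the low group. The log2 change was -0.18 (SE 0.094, limma adjusted p = 0.158) on 3 to 9 reads per library. Without low glucose replicate 1 it was -0.263 with an adjusted p of 0.0235, so here too 1 library decides the call. The sign of EGR2 was opposite to that of EGR1 and EGR3. The log2 ratio of EGR2 to EGR1 was higher at high glucose by 0.52, with 3 of 4 high glucose libraries above all low glucose libraries, a pair chosen after its values were seen and given with no test.

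NR4A1 (Nur77), a receptor tied to apoptosis and to metabolic genes, did not pass the test. Its gene (ENSG00000123358.20) spans 52416616 to 52453291 of chromosome 12 on GRCh37, plus strand. Its low glucose levels were 3.28, 3.84, 4.58 and 5.09 CPM. Its high glucose levels were 5.15, 4.44, 3.98 and 2.47 CPM, so the highest and the lowest of the 8 libraries were both at high glucose. The log2 change was -0.070 (SE 0.20, limma adjusted p = 0.83). The sign turned to 0.091 with quantile normalization and to 0.096 without high glucose replicate 4. A transcript on the opposite strand, NR4A1AS, overlaps 754 bases (30.34%) of the NR4A1 transcript, and whether the counting used the strand is not given in the sources used here.

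NR4A2 (Nurr1), known for its part in dopamine neurons and as a rapid cyclic AMP target, was higher at high glucose. The gene (ENSG00000153234.14) lies on the minus strand of chromosome 2, from 157180949 to 157198860 on GRCh37. It was at 0.667, 0.497, 0.764 and 0.364 CPM in the low glucose libraries. The high glucose libraries had 2.12, 2.15, 1.65 and 1.60 CPM. The lowest high glucose value was above the highest low glucose value. The fold of the means was 3.28 and the log2 change was 0.87 (SE 0.11, limma adjusted p = 4.684e-04), from 5 to 30 reads per library.

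NR4A3 (Nor1), the receptor with 4 CRE cores printed above, had the largest change of the 10 on the log2(CPM + 1) scale, while the fold of the means was larger for NR4A2. On GRCh37 it is annotated at 102584137 to 102629173 of chromosome 9, plus strand (ENSG00000119508.18). Low glucose levels were 2.42, 1.57, 1.78 and 2.26 CPM. High glucose levels were 5.51, 4.54, 6.598 and 6.22 CPM, and the groups lay clear of each other. The fold of the means was 2.85 and the log2 change was 1.16 (SE 0.14, limma adjusted p = 4.066e-04). The log2 ratio of NR4A3 to NR4A1 was higher at high glucose by 1.23, and that of NR4A2 to NR4A1 by 0.94, with 4 of 4 high glucose libraries above all low glucose libraries in both. These pairs were chosen after the values were seen, so the ratios are a description with no test.

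Per transcript length, NR4A1 made up 75.98% ± 5.49 of the summed NR4A level at low glucose and 50.03% ± 8.17 at high glucose (SD, n = 4 each). The ranges were 67.9% to 80.1% and 38.8% to 56.6%. NR4A3 went from 16.4% ± 3.99 to 32.9% ± 8.46, and NR4A2 from 7.62% ± 2.60 to 17.1% ± 1.985. The NR4A genes summed to 2.21 ± 0.304 CPM per kb in the low and 3.18 ± 0.455 in the high group. Since a share falls whenever another rises, these are 3 views of the same change.

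**Figure D3:**
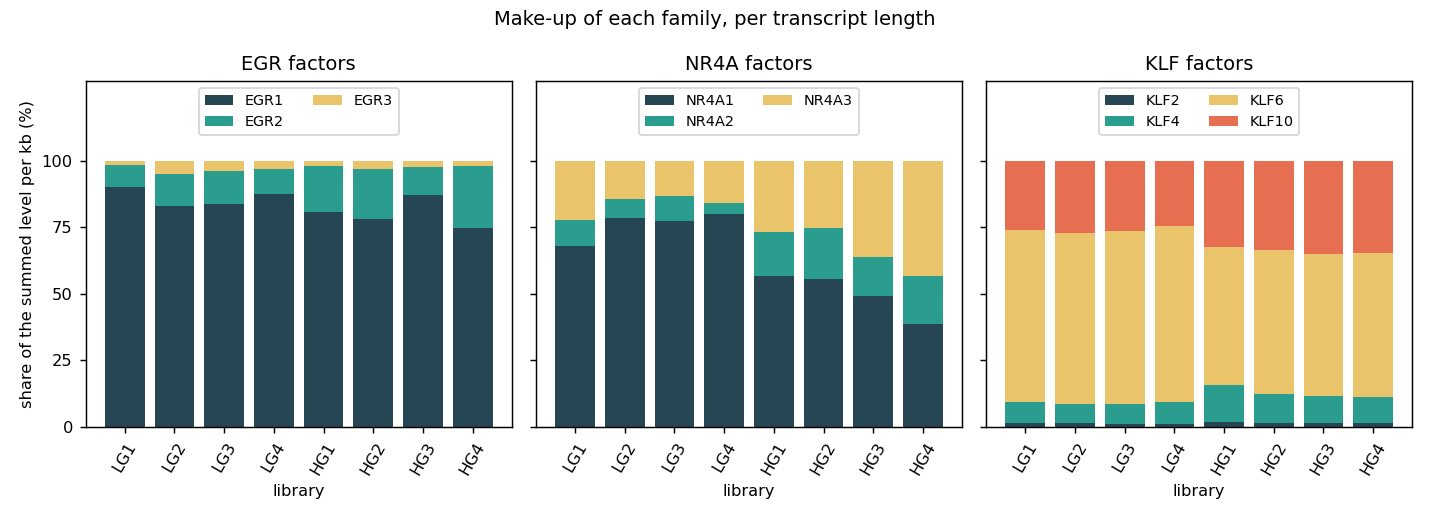
Share in percent of each factor in the summed level per kb of its family, with 1 bar per library (LG, low glucose, and HG, high glucose, replicates 1 to 4). NR4A1 takes 67.9% to 80.1% of the low glucose NR4A bars and 38.8% to 56.6% of the high glucose ones, while EGR1 keeps 74.6% to 90.3% of the EGR bars throughout.

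KLF2, a factor of endothelial quiescence and of T cell trafficking, was higher at high glucose. Its gene (ENSG00000127528.5) spans 16435637 to 16439496 of chromosome 19 on GRCh37, plus strand. The low glucose libraries had 1.75, 1.99, 1.19 and 1.24 CPM. The high glucose libraries had 3.25, 2.39, 2.89 and 2.75 CPM, each above each low glucose value. The fold of the means was 1.83 and the log2 change 0.60 (SE 0.13, limma adjusted p = 6.821e-03), on 14 to 46 reads per library.

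KLF4, a factor of epithelial barrier and of pluripotency, had 10.9, 9.52, 10.45 and 11.4 CPM at low glucose. At high glucose it had 27.5, 21.4, 19.9 and 18.6 CPM, with replicate 1 the highest and no overlap with the low group. The fold of the means was 2.07, with a log2 change of 0.97 (SE 0.12, limma adjusted p = 5.41e-04). Without high glucose replicate 1, the library that stood apart along transcript length, the change was 0.86 (adjusted p = 1.927e-04). Of the KLF4 transcript, 277 bases (9.435%) lie opposite another annotated gene. The gene (ENSG00000136826.15) lies on the minus strand of chromosome 9, from 110247133 to 110252763 on GRCh37.

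KLF6, a factor of injury responses with a described tumor suppressor role, was the most abundant member and changed least among those called. On GRCh37 it is annotated at 3818188 to 3827473 of chromosome 10, minus strand (ENSG00000067082.15). It was at 138.7, 139.9, 141.1 and 144.1 CPM in the low glucose libraries. In the high glucose libraries it was at 158.2, 166.8, 163.6 and 165.5 CPM. The groups did not overlap and the spread was narrow, with means of 140.9 ± 2.31 and 163.5 ± 3.80 CPM (SD, n = 4 each). The fold of the means was 1.16 and the log2 change 0.21 (SE 0.022, limma adjusted p = 2.067e-04). Quantile normalization gave 0.11, still called.

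KLF10 (TIEG1), a gene named for its induction by TGF-beta, had the smallest adjusted p of the 10. Its gene (ENSG00000155090.15) spans 103661012 to 103667953 of chromosome 8 on GRCh37, minus strand. Its low glucose levels were 35.1, 37.1, 36.4 and 33.6 CPM. Its high glucose levels were 62.5, 65.4, 68.05 and 67.1 CPM. No low glucose library came near the high range. The fold of the means was 1.85 and the log2 change 0.87 (SE 0.040, limma adjusted p = 5.265e-06).

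The order of the levels per transcript length was led by KLF6 in both groups. At low glucose the means were 30.7 CPM per kb for KLF6, 12.2 for KLF10, 3.60 for KLF4, 2.69 for EGR1 and 1.69 for NR4A1, and no neighbours among these overlapped. KLF2, NR4A3 and EGR2 followed at 0.547, 0.358 and 0.326, with overlapping ranges between neighbours, and NR4A2 and EGR3, at 0.165 and 0.108, also overlapped. At high glucose KLF6, KLF10 and KLF4 again led, at 35.6, 22.6 and 7.44 CPM per kb. EGR1, NR4A1, NR4A3 and KLF2 formed a run from 2.31 down to 1.0 in which each neighbour overlapped the next. NR4A2 and EGR2 overlapped at 0.541 and 0.491, and EGR3 was lowest at 0.0663. The summed level of the 4 KLF genes was 47.05 ± 0.304 CPM per kb at low glucose and 66.6 ± 0.247 at high glucose (SD, n = 4 each).

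The rest of the KLF family gave the KLF members their setting. Of 12 other KLF genes in the table, 6 were higher, 0 lower and 6 not called by limma. KLF5, a factor of proliferating epithelium, went from 9.52 ± 0.505 to 21.96 ± 1.78 CPM, which on the log2 scale is 1.125 (SE 0.067, adjusted p = 1.586e-05). KLF11, the TGF-beta inducible relative of KLF10, went from 45.1 ± 1.88 to 55.8 ± 1.61 CPM, which on the log2 scale is 0.30 (SE 0.036, adjusted p = 4.13e-04). KLF7 had every high glucose library below every low glucose library and was not called, with a log2 change of -0.30 (adjusted p = 0.0727). It was chosen after its values were seen. Over the 16 KLF genes of the table the median log2 change was 0.25, and 13 of them had a mean of at least 1 CPM.

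**Figure D4:**
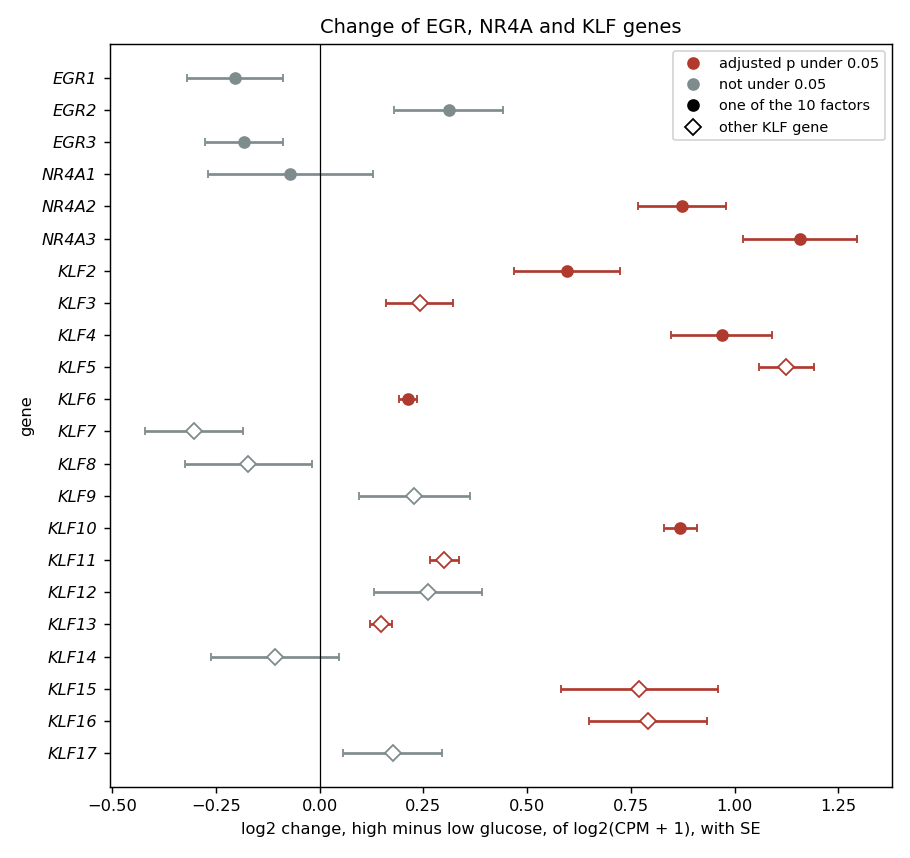
Log2 change with its SE, high minus low glucose, on the log2(CPM + 1) scale, for the 10 factors (filled circles) and the 12 other KLF genes (open diamonds), in red where the limma adjusted p was under 0.05. NR4A2, NR4A3 and 10 KLF genes are red and right of 0, and no gene is red left of 0.

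Genes upstream of and beside the factors were taken from lists compiled from general knowledge, and each list is described by its counts. Of 112 other genes in these lists, counted once each, 73 were called, 59 higher and 14 lower, against 22.0% higher and 24.8% lower over all genes. Most list genes are expressed, while the share over all genes includes many that are not. In the fit restricted to a mean of at least 1 CPM, 75 list genes were called, beside 9631 of 14372 genes. Fewer than 112 list genes reach that mean, so 75 is not a share of 112. Whether the number called is particular to the lists was not tested. The median log2 change of the 112 genes was 0.25.

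Transcripts of the route to EGR genes moved in both directions. In the serum response factor module, 5 of 7 genes were higher, 1 was lower and 1 (ELK4) was not called. SRF itself went from 36.8 ± 2.59 to 68.7 ± 2.75 CPM, which on the log2 scale is 0.88 (SE 0.055, limma adjusted p = 1.882e-05). ELK1, its ERK-regulated partner, went from 80.5 ± 2.04 to 155.6 ± 2.95 CPM, which on the log2 scale is 0.94 (adjusted p = 8.55e-07). MRTFA, an actin-regulated coactivator, rose by 0.25, and ELK3 and MYOCD were the other 2 called higher. MRTFB, the relative of MRTFA, was the exception and fell from 242.1 ± 4.11 to 78.9 ± 12.55 CPM. In the RAS to ERK cascade, 8 of 15 genes were higher, 2 lower (MAPK3 and RPS6KA2) and 5 not called, with MAPK3 (ERK1) from 26.0 ± 1.86 to 18.0 ± 1.55 CPM. RPS6KA1, NRAS and RPS6KA5 were among those higher, by 1.20, 0.55 and 0.97 on the log2 scale. EGR1, EGR2 and EGR3 were not called beside these changes.

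In the CREB module, upstream of NR4A genes, 6 of 10 genes were higher and 0 lower. CRTC2, a CREB coactivator, went from 30.3 ± 0.571 to 68.5 ± 4.06 CPM, which on the log2 scale is 1.15 (SE 0.042, limma adjusted p = 2.397e-06). CRTC1 and ATF1 rose by 0.79 and 0.77, and PRKACA, the catalytic subunit of protein kinase A, by 0.41. CREB1, CREM, CRTC3 and PRKACB were not called. In the ERK5 and MEF2 module, 4 of 12 genes were higher (MAP3K2, MAP3K3, MEF2B and MEF2D) and 3 lower (MAP2K5, HDAC9 and HDAC7). MEF2B was near the floor of 3 reads at low glucose, and went from 0.282 ± 0.132 to 1.15 ± 0.135 CPM. MAP2K5, the kinase directly above ERK5, fell from 28.2 ± 1.225 to 11.6 ± 1.45 CPM, and MAPK7 (ERK5) was not called, at 22.7 ± 0.590 and 25.1 ± 2.07 CPM. All of these are transcript levels, and the activity of the kinases was not measured.

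Among partners of the factors, NAB2, an EGR corepressor that is itself an EGR target, fell from 46.2 ± 2.33 to 36.5 ± 3.54 CPM (log2 change -0.34, SE 0.072, limma adjusted p = 6.943e-03). DDX20, another corepressor, rose by 0.33, and the other 4 of 6 (NAB1, RXRA, RXRB and RXRG) were not called. Genes with described EGR sites were split, with 5 of 14 higher (CCND1, THBS1, IER3 and F3 among them) and 5 lower (ID3, PDGFB, NAB2 and FN1 among them). CCND1, cyclin D1, went from 56.4 ± 1.05 to 83.1 ± 2.84 CPM, and ID3, an inhibitor of differentiation, from 15.9 ± 1.09 to 5.96 ± 1.77 CPM. Of 14 genes with described KLF sites, only 7 reached a mean of 1 CPM. In all, 5 were higher (TGFBR1, CDKN1A, SMAD7, ITGB7 and ATF3) and 1 was lower (LAMA3). ITGB7 was near the floor of 3 reads at low glucose, and went from 0.147 ± 0.172 to 1.39 ± 0.129 CPM. CDKN1A, the cell cycle inhibitor p21 and a KLF4 and KLF6 target, went from 33.4 ± 2.30 to 78.6 ± 10.2 CPM, which on the log2 scale is 1.21 (SE 0.094, limma adjusted p = 5.398e-05). TGFBR1, a TGF-beta receptor, went from 141.6 ± 2.79 to 271.9 ± 6.53 CPM.

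Other early-response genes were mostly higher, with 21 of 26 higher, 2 lower (BTG2 and ZFP36L1) and 3 not called (HES1, IER5L and PLK2), and a median log2 change of 0.62. MAFF, a small MAF factor, rose from 17.4 ± 1.80 to 63.3 ± 4.45 CPM, which on the log2 scale is 1.81 (SE 0.082, limma adjusted p = 5.159e-06). BHLHE40 and NFIL3, both circadian regulators, rose by 0.71 and 0.93. BTG2, an antiproliferative gene, fell from 39.7 ± 1.935 to 18.5 ± 0.772 CPM, which on the log2 scale is -1.06 (adjusted p = 4.087e-06).

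**Figure D5:**
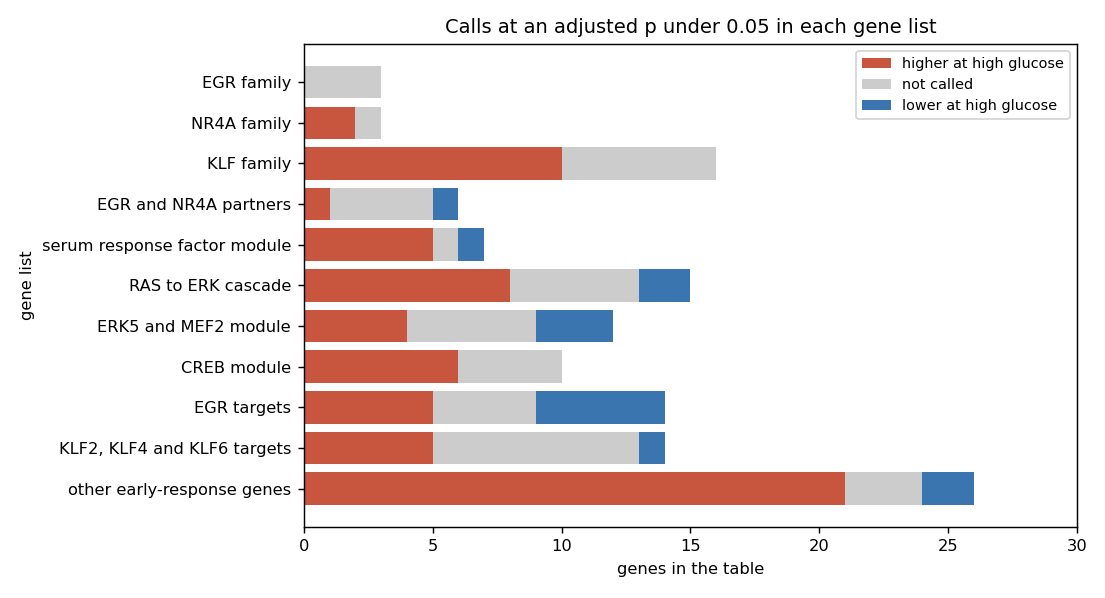
Number of genes in each list that were higher at high glucose, not called, or lower at high glucose at a limma adjusted p under 0.05. Other early-response genes have 21 of 26 higher, the KLF family 10 of 16, and the EGR family 0 of 3.

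The pattern of the leading member of each family was compared with genes of at least 5 CPM over the 8 libraries, by Pearson correlation of log2(CPM + 1), as a description. EGR1 was most like SUMF1 (r = 0.951), USP2 (r = 0.934) and EFR3B (r = 0.934), and 8 of 11296 genes had an r above 0.9. NR4A1 was most like FLYWCH1 (r = 0.950), ARFGAP1 (r = 0.950) and DHODH (r = 0.941), with 12 of 11297 genes above 0.9. KLF6 was most like FAM160A1 (r = 0.998), CAMSAP1 (r = 0.996) and RBBP6 (r = 0.996), and 2359 of 11296 genes were above 0.9. Leaving out 1 library moved r to 0.8495 for USP2 (high glucose replicate 2) and, without high glucose replicate 4, to 0.877 for FLYWCH1 and 0.869 for ARFGAP1. The 8 points share their libraries, their depth and the difference between the groups.

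The label of the line as lacking estrogen receptor was compared with 6 genes, which do not identify the line itself. ESR1 was at 0.121 ± 0.0811 and 0.0598 ± 0.0406 CPM, under the floor of 3 reads in all 8 libraries, as its label without estrogen receptor states. PGR was at 4.76 ± 0.360 and 5.345 ± 0.597 CPM and was not called. The other 4, ERBB2, KRT8, KRT18 and VIM, were lower at high glucose, with VIM, a mesenchymal filament, from 4091 ± 28.5 to 2967 ± 210.3 CPM. Whether they have a part in the change of the 10 factors was not tested.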

How the data were processed

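The deposited table holds CPM that the authors scaled by trimmed mean of M values with edgeR. The study's methods, written first for tumors, name hg19, and the submitters' processing notes name hg38, so positions from GENCODE release 44 on GRCh37 and sequences from RefSeq on GRCh38.p14 describe annotation, not the alignment. Of 21077 lines, 18 Y copies of pseudoautosomal genes, identical to the X copies, were left out. Low values fell on steps of a read, but not all were whole, so whole reads were not recovered, and depth is an estimate (9721648 to 12482546 reads per library) that covers counting error only.

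Genes were compared with limma 3.58.1 in R 4.3.3 (lmFit, eBayes with a mean-variance trend, log2(CPM + 1), no filter, no covariate, 2-sided) on all 21059 genes, adjusted by Benjamini-Hochberg and called under 0.05. The steps were tested on simulated data. Ratios of pairs of factors are described without a test. Lengths are those of the canonical transcript. The 10 members and all lists were chosen with earlier results of these data known. Named were all members, in each list the 4 genes with the smallest adjusted p under 0.05, every gene in counts of 5 or fewer, and the 3 genes most like EGR1, NR4A1 and KLF6. Of the genes this rule selects, some are not reported here. EGR4, KLF1 and TGFB1 were not analysed here. Alternatives were another pseudocount, filter, scaling, variance model, library weighting, a length correction, a replicate block and leaving out each library. Likeness and pair alternatives were added after seeing the data.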

Additional observations from a re-analysis of the deposited data

Results flagged for a closer look

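Among 92 groups of 4 libraries (46 genes), 6 had a library whose gap to the nearest of the others, divided by the range of the group, was above Dixon's critical value for 4 samples, against 4.6 that chance gives at 1 in 20. None was one of the 10 factors. CRTC1 was at 25.15 CPM in high glucose replicate 4, with the others at 32.05 to 33.24. CRTC2 was at 74.48 CPM in high glucose replicate 3, with the others at 65.52 to 66.99. MAP3K3 was at 65.14 CPM in low glucose replicate 2, below 69.13 to 69.82 in the others. NRAS was at 104.0 CPM in high glucose replicate 2, below 113.5 to 115.3. SMAD7 was at 19.47 CPM in high glucose replicate 3, above 16.98 to 17.01. VIM was at 3282 CPM in high glucose replicate 1, above 2856 to 2869.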

How the results depend on the processing

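The number of factors called higher was 6 in every alternative except quantile normalization and leaving out high glucose replicate 3, where it was 7 with EGR2 added. Of 158 values of the 10 factors under alternatives, 152 kept their direction and their side of the threshold. EGR2 passed the threshold with quantile normalization at 0.4129, and its values when each library was left out ran from 0.2191 to 0.4093. EGR3 ran from -0.2627 to -0.1022 and passed without low glucose replicate 1, so the count called lower ran from 0 to 1. NR4A1 turned positive with quantile normalization (0.09138) and ran from -0.1793 to 0.09576 when a library was left out, turning without replicate 4 of either group. The cause was not tested. The 36 other named genes kept direction and call in all 572 values. The difference between NR4A2 and NR4A1 was 1.68 with a pseudocount of 0.1 CPM. Genes called over the table ranged from 8899 (without low glucose replicate 1) to 10462 (library weights).

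The replicate numbers are shared by the groups, but libraries with the same number did not deviate together (correlations -0.0403 to 0.0692, and 2 of 8 libraries most like their own number). With a replicate block, 8921 genes and 6 factors were called, against 9849 and 6. Depth limits EGR3, on 3 to 9 reads per library, EGR2, on 9 to 22, and NR4A2, on 5 to 30. The log2 change of NR4A2 was 0.87 in the main fit and 1.58 with a pseudocount of 0.1 CPM.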
